A study of Mus musculus with 20 samples.

Results

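The core circadian clock was followed through 10 genes in the livers of mice given a locked nucleic acid (LNA, a chemically stabilised antisense oligonucleotide) against SNORA73, a small nucleolar RNA of the Snhg3 gene, or against GFP, a sequence that the mouse genome lacks. The genes were Arntl (also called Bmal1), Clock, Npas2, Per1, Per2, Per3, Cry1, Nr1d1, Nr1d2 and Dbp. They were taken by symbol. All 10 were found among the 53028 genes of the count table, and all 10 passed the filter on low counts in total RNA and in polysome RNA. Each of 20 libraries came from 1 of 10 mice. Every mouse gave a library of total liver RNA and a library of RNA recovered from polysome fractions, the part of the lysate in which mRNAs carry several ribosomes. Mice 1, 2, 3, 8 and 9 received the GFP LNA, and mice 4, 6, 10, 11 and 12 received the SNORA73 LNA, which the labels spell as a knockdown of Snora37. All were male C57BL/6J mice on standard chow with a 12 h light and 12 h dark cycle, given 3 intraperitoneal injections of 3 mg/kg and killed 2 days after the last one. The knockdown method gives an age of 8 weeks and the polysome method an age of 10 weeks. The polysome method also gives an injection of cycloheximide into the tail vein minutes before death. Total RNA came from liver lysed in polysome buffer, and the libraries were made after polyA selection. The LNA is systemic and the liver was sampled whole, so a value cannot be assigned to 1 cell type, and in bulk liver fewer cells of a type and less RNA per cell cannot be told apart. The time of day at which each liver was taken is not given in the sources used here.

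The mammalian clock is a transcriptional loop that runs in nearly every cell and is strong in hepatocytes. BMAL1 (the Arntl product), paired with CLOCK or NPAS2, binds E-box sequences and drives transcription of Per, Cry, Nr1d1, Nr1d2 and Dbp. PER and CRY proteins then inhibit that pair, and the REV-ERB receptors (Nr1d1, Nr1d2) repress Arntl, Npas2 and Cry1 through ROR elements, so that in normal liver the activators Arntl and Npas2 peak when Dbp and the REV-ERB transcripts are low.

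The short sequences that the clock proteins are known to bind were looked for on both strands of the promoter windows of the members, 250 bases before to 50 bases after each annotated start (RefSeq, GRCm38.p6). They are shown because they are the elements through which the members are known to act on each other. Windows were available for 9 of the 10 genes, 13 windows in all, and not for Per2. The E-box CACGTG was found in Per1 and Cry1, its variant CACGTT in Cry1 and Nr1d1 (in both read as AACGTG along the gene's strand), the D-box TTATGTAA in Per3, and the ROR element TAGGTCA in Arntl. Each match is in capitals with 11 bases on either side, 5′ to 3′ along the gene's own strand:
Arntl, chr7:113207530-113207558, plus strand: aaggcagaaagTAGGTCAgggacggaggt
Cry1, chr10:85185098-85185125, minus strand: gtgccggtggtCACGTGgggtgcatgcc
Cry1, chr10:85185117-85185144, minus strand: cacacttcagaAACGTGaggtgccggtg
Nr1d1, chr11:98775389-98775416, minus strand: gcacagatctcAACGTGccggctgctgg
Per1, chr11:69098772-69098799, plus strand: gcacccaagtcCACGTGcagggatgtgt
Per3, chr4:151044805-151044834, minus strand: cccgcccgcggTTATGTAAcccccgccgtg
Per3, chr4:151044852-151044881, minus strand: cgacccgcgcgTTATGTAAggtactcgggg
The Arntl match began 30 bases after the annotated start, and the others lay before the start, from 28 bases in Nr1d1 to 205 bases for the more distant Per3 match. Over all 32851 mouse promoter windows of this length, 7.15% held CACGTG, 4.68% held CACGTT, 1.06% held TTATGTAA or TTACGTAA, and 6.45% held TAGGTCA or TGGGTCA. A match describes the letters in the window and is not a measured binding site, and a gene without one lacks these letters in this window only.

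The library totals ran from 14853056 to 33824824 estimated counts for polysome RNA and from 20005571 to 42023572 for total RNA, and levels are given as CPM (read counts scaled to a common library total) after TMM scaling. The 3 annotated SNORA73 genes together had 0 to 5 counts in a library, so these libraries do not check the knockdown. The 5 hepatocyte markers (Alb, Apoa1, Ttr, Serpina1c, Cyp2e1) summed to 38543 to 66562 CPM in total RNA, and all 5 were tested. The summed level was 107 to 209 CPM for 5 Kupffer cell markers, 81.5 to 111 CPM for 5 sinusoidal endothelial markers, 183 to 278 CPM for 5 stellate cell markers, 12.4 to 54.6 CPM for 5 cholangiocyte markers (3 of them tested) and 1.56 to 2.87 CPM for 5 T cell markers (2 of them tested), and no marker was at 0 in a whole group. Of all 30 markers, 1 endothelial marker (Stab2) was called with the SNORA73 LNA, higher in total RNA. The study left out 1 mouse of each LNA group after a principal component analysis without naming it in the sources used here. Mice 9 (GFP) and 10 (SNORA73) were left out as an alternative pair, chosen with earlier results of these data known. Mouse 10 had the highest or lowest value of the 10 mice in 38.2% of the 13195 genes tested in total RNA, mouse 11 in 27.2%, mouse 9 in 25.4% and mouse 6 in 23.9%. On polysomes mouse 11 held 37.8% and mouse 9 held 19.6%, so over all genes this measure does not set mouse 9 apart.

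Arntl (ENSMUSG00000055116, chromosome 7, 113178471 to 113314126) encodes BMAL1, the activator without which the loop stops. In total RNA its level was 10.6, 9.62, 9.29, 8.62 and 1.45 CPM in GFP LNA mice 1, 2, 3, 8 and 9, and 11.4, 9.33, 13.4, 5.36 and 6.94 CPM in SNORA73 LNA mice 4, 6, 10, 11 and 12. In polysome RNA the values in the same order were 10.4, 10.3, 9.15, 8.56 and 1.16 CPM and 9.33, 8.31, 11.8, 2.73 and 5.42 CPM. Mouse 9 was lowest in both RNAs, mice 11 and 12 came next, and the other 7 mice lay close together, so the LNA groups overlapped. The log2 fold change with the SNORA73 LNA was 0.22 (SE 0.40) in total RNA and -0.07 (SE 0.47) in polysome RNA, and neither passed the test (edgeR quasi-likelihood, adjusted p = 0.917 and 0.969). Without mouse 9 and mouse 10 the value in total RNA changed sign, to -0.21.

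Clock (chromosome 5, 76209868 to 76305603), the usual partner of BMAL1, was the steadiest member. Its total RNA level was 45.2, 43.6, 38.9, 41.1 and 34.8 CPM in GFP LNA mice and 44.4, 37.3, 42.2, 57.4 and 39.7 CPM in SNORA73 LNA mice. On polysomes it was 33.1, 25.7, 23.0, 28.9 and 18.2 CPM and 30.3, 41.0, 35.0, 31.0 and 24.3 CPM. The highest total RNA value, in mouse 11, was 1.65 times the lowest, in mouse 9. The log2 fold change was 0.12 (SE 0.12) for total RNA and 0.33 (SE 0.17) for polysome RNA, with edgeR adjusted p = 0.845 and 0.441.

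Npas2 (chromosome 1, 39193702 to 39363240) encodes the alternative partner. In total RNA it was 4.14, 2.78, 4.04, 2.51 and 0.145 CPM in GFP LNA mice and 4.47, 1.62, 2.46, 1.70 and 1.17 CPM in SNORA73 LNA mice. The polysome values were 3.46, 3.00, 3.30, 2.91 and 0.415 CPM and 3.40, 0.967, 2.65, 1.04 and 0.439 CPM. Mouse 9 was lowest again, with a total RNA value that rests on 4 counts, and mice 12, 6 and 11 followed it. With the SNORA73 LNA it differed by a log2 fold change of -0.29 (SE 0.56) in total RNA and -0.61 (SE 0.55) on polysomes, neither of which passed (edgeR adjusted p = 0.923 and 0.675).

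Among the repressors, Per1 (chromosome 11, 69095108 to 69109965), a period gene that is also known to respond to glucocorticoids, was low in mouse 1 and in mouse 10. Total RNA held 0.621, 3.44, 2.02, 1.94 and 2.86 CPM in GFP LNA mice and 1.70, 4.77, 1.01, 3.51 and 2.55 CPM in SNORA73 LNA mice. Polysome RNA held 0.411, 3.998, 2.61, 2.27 and 2.24 CPM and 2.11, 5.94, 1.08, 4.86 and 2.78 CPM. Mouse 6 was highest in both RNAs. Its log2 fold change was 0.33 (SE 0.44) in total RNA and 0.55 (SE 0.51) on polysomes (edgeR adjusted p = 0.885 and 0.685).

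Per2 (chromosome 1, 91415977 to 91459351), the period gene whose protein carries much of the negative feedback, ranged more widely in GFP LNA than in SNORA73 LNA livers in total RNA but not on polysomes. In total RNA it was 4.32, 1.49, 3.5002, 6.56 and 7.67 CPM in GFP LNA mice and 3.46, 3.84, 3.87, 4.56 and 4.10 CPM in SNORA73 LNA mice. In polysome RNA it was 2.57, 2.14, 3.30, 3.75 and 5.10 CPM and 4.52, 2.56, 1.66, 3.66 and 2.42 CPM. All 5 SNORA73 LNA values in total RNA lay inside the GFP LNA range. The difference between the LNAs in log2 was -0.23 (SE 0.33) in total RNA and -0.19 (SE 0.30) on polysomes (edgeR adjusted p = 0.895 and 0.826).

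Per3 (chromosome 4, 150997018 to 151044707), a period gene whose transcript cycles strongly in liver, was highest in mouse 9. Levels in total RNA were 0.296, 0.537, 0.696, 1.09 and 4.88 CPM in GFP LNA mice and 0.958, 0.899, 0.553, 1.80 and 1.95 CPM in SNORA73 LNA mice. Its polysome levels were 0.274, 0.727, 0.249, 0.951 and 3.57 CPM and 0.939, 0.628, 0.494, 1.47 and 0.878 CPM. In total RNA mice 12 and 11 came next after mouse 9. Its log2 fold change was -0.24 (SE 0.67) in total RNA and -0.38 (SE 0.66) on polysomes, with edgeR adjusted p = 0.951 and 0.844. It became 1.13 and 0.88 without mice 9 and 10, again without passing the test.

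Cry1 (chromosome 10, 85131700 to 85185054) encodes the cryptochrome that represses BMAL1 with CLOCK late in the cycle. Total RNA held 14.4, 11.2, 9.54, 13.7 and 2.89 CPM in GFP LNA mice and 10.4, 5.98, 12.01, 8.62 and 7.11 CPM in SNORA73 LNA mice. The values on polysomes were 11.6, 9.72, 7.62, 8.72 and 1.95 CPM and 7.81, 6.38, 7.46, 3.71 and 3.44 CPM. Like Arntl, it was lowest in mouse 9, and on polysomes mice 12 and 11 followed. With the SNORA73 LNA the log2 fold change was -0.24 (SE 0.34) in total RNA and -0.46 (SE 0.38) on polysomes (edgeR adjusted p = 0.895 and 0.650).

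Of the REV-ERB genes, Nr1d1 (chromosome 11, 98767932 to 98775377), which encodes REV-ERB alpha, had total RNA levels of 12.9, 22.5, 15.3, 27.9 and 25.9 CPM in GFP LNA mice and 17.1, 26.5, 17.8, 26.4 and 37.4 CPM in SNORA73 LNA mice. Polysome RNA had 12.8, 35.8, 20.5, 28.8 and 39.6 CPM and 18.9, 36.5, 16.5, 27.6 and 43.0 CPM. It was highest in mouse 12 and lowest in mouse 1. The difference between the LNAs in log2 was 0.27 (SE 0.25) in total RNA and 0.05 (SE 0.31) on polysomes (edgeR adjusted p = 0.822 and 0.964).

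Nr1d2 (chromosome 14, 18204056 to 18239106), which encodes REV-ERB beta, had total RNA levels of 19.5, 32.0, 22.5, 35.3 and 63.9 CPM in GFP LNA mice and 27.9, 28.9, 22.1, 43.3 and 50.1 CPM in SNORA73 LNA mice. On polysomes it was 9.80, 16.1, 9.45, 11.8 and 25.8 CPM and 13.3, 26.3, 8.04, 19.3 and 15.4 CPM. In total RNA mice 9, 12 and 11 were highest, the mice in which Arntl was lowest. Its log2 fold change was -0.01 (SE 0.31) in total RNA and 0.18 (SE 0.32) on polysomes (edgeR adjusted p = 0.999 and 0.853).

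Dbp (chromosome 7, 45705100 to 45710203) encodes a D-box binding activator and is the classical output of the loop, known for a very wide daily swing in liver. Levels in total RNA were 1.54, 1.95, 1.79, 5.10 and 23.0 CPM in GFP LNA mice and 2.34, 6.74, 2.31, 14.9 and 22.7 CPM in SNORA73 LNA mice. In polysome RNA it was 2.47, 3.82, 3.44, 8.51 and 42.5 CPM and 2.64, 11.4, 3.10, 25.001 and 37.0 CPM. High mice occurred under both LNAs, mouse 9 among the GFP LNA livers and mice 11 and 12 among the SNORA73 LNA livers, and low mice did too. The log2 fold change was 0.59 (SE 0.82, 95% interval -1.29 to 2.48) in total RNA and 0.38 (SE 0.84) on polysomes, and neither passed (edgeR adjusted p = 0.890 and 0.883). Leaving out mouse 9 moved this value most, and without it the log2 fold change was 1.97 in total RNA and 1.81 on polysomes (adjusted p = 0.3295 and 0.2952), and without mice 9 and 10 it was 2.23 and 2.08 (adjusted p = 0.141 and 0.195). Without mouse 12 the Dbp log2 fold change was 0.0044 in total RNA and -0.21 on polysomes.

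**Figure D1:**
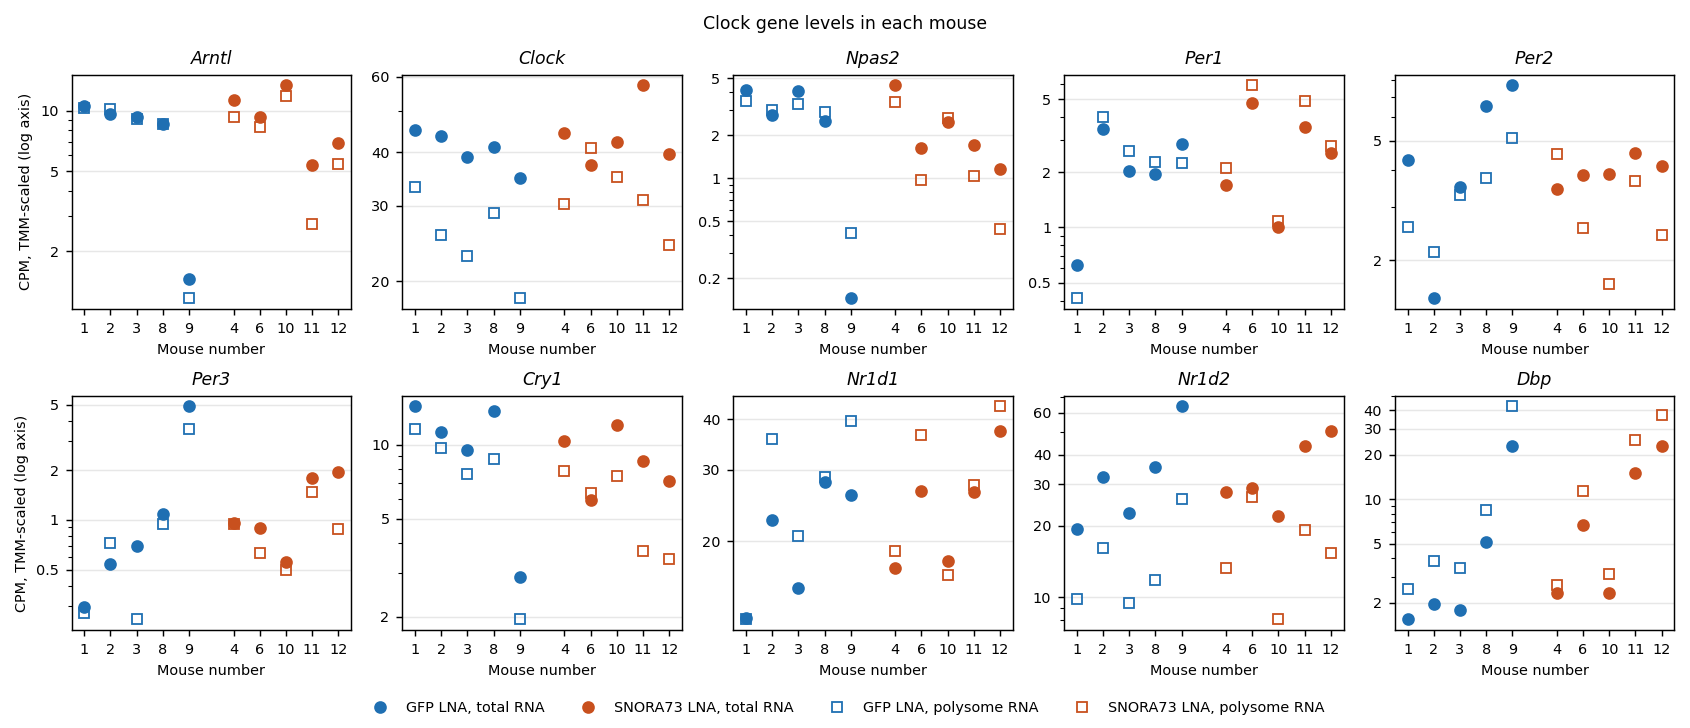
Level of each clock gene in CPM after TMM scaling (log axis) by mouse number, with filled circles for total RNA, open squares for polysome RNA, blue for the GFP LNA and orange for the SNORA73 LNA. Mouse 9 was lowest for Arntl, Clock, Npas2 and Cry1 and highest for Per2, Per3, Nr1d2 and Dbp in total RNA, where Dbp reached 23.0 CPM.

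With the SNORA73 LNA no clock gene changed past the test in either RNA. In total RNA 0 of 10 members had an edgeR false discovery rate under 0.05, where 0.0303% of the 13195 genes tested did (4 genes). At an unadjusted p under 0.05 the count was 0 of 10, where 8.65% of genes passed. For polysome RNA the count was 0 of 10, beside 0.0153% of the 13060 genes tested (2 genes), and 0 of 10 at an unadjusted p under 0.05, where 13.4% passed. DESeq2 and limma-voom also called 0 members in both RNAs. The log2 fold changes in total RNA ran from -0.29 for Npas2 to 0.59 for Dbp, with a median of 0.06 beside 0.01 over all genes tested, and 5 were above 0. The values of the SNORA73 LNA and GFP LNA mice did not separate for any member in either RNA. Over all genes tested they separated for 1.8% in total RNA and 3.2% in polysome RNA. A count of 0 of 10 is near these shares and is not shown to be a trait of the clock genes. The intervals were wide: that of Clock ran from -0.17 to 0.40, and that of Per3 from -1.78 to 1.298, which holds more than a doubling in either direction. Without mice 9 and 10 total RNA gave 97 calls among 13017 genes (0.745%) and polysome RNA 31 among 12825 (0.242%), and 0 of the 10 clock genes were called in either.

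**Figure D2:**
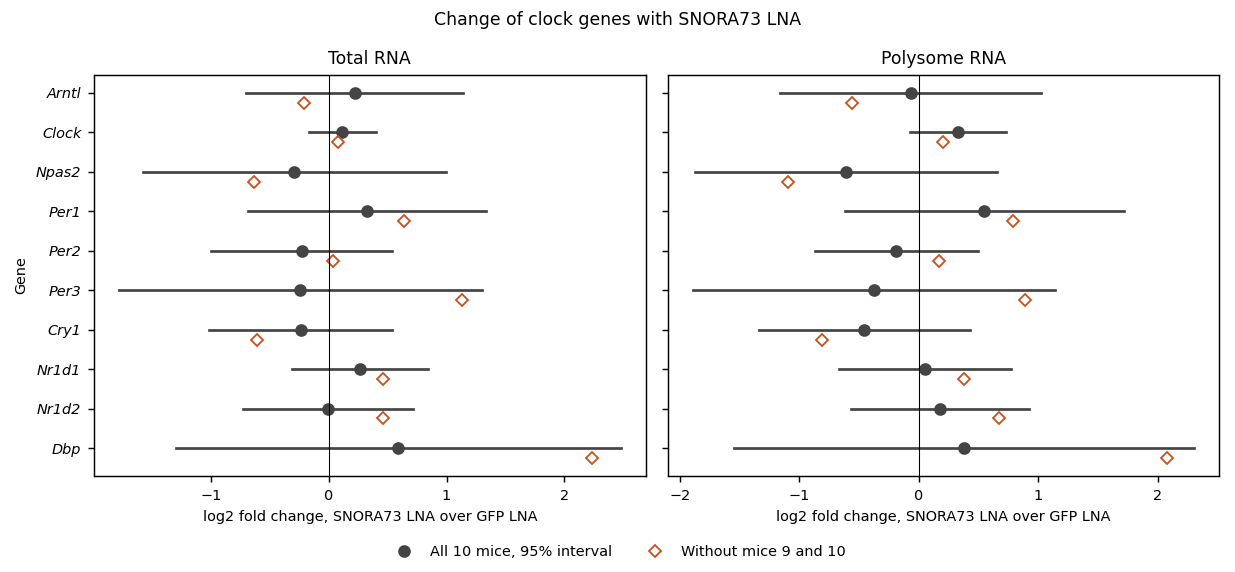
Log2 fold change, SNORA73 LNA over GFP LNA, for each clock gene in total RNA (left) and polysome RNA (right), with filled circles and lines for the estimate and 95% interval over all 10 mice and open diamonds for the estimate without mice 9 and 10. All 20 intervals cross 0, and the Dbp estimate moves from 0.59 to 2.23 in total RNA.

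The clock genes varied widely between mice of the same LNA group. The SD of log2 CPM within LNA groups was 1.56 for Dbp, 1.45 for Npas2, 1.16 for Per3, 0.93 for Arntl and 0.90 for Per1 in total RNA, where the median over all genes tested was 0.25. It was 0.73 for Cry1, 0.66 for Per2, 0.58 for Nr1d2 and 0.48 for Nr1d1. Clock stood alone at 0.20. Low transcripts are noisier, so each member was set beside the 1000 genes nearest to it in mean level. By this measure 9 of the 10 members had an SD above that of 90% of genes of similar level, with a median percentile of 98.1, and the exception was Clock at 59.8. In polysome RNA 8 of 10 were above 90%, with Clock at 68.7 and Per2 at 76.3, and the median was 95.55. The members share mice and move together, so these percentiles are a description and no test. Mouse 9 contributed to it, and without mouse 9 the median in total RNA was 94.65.

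**Figure D3:**
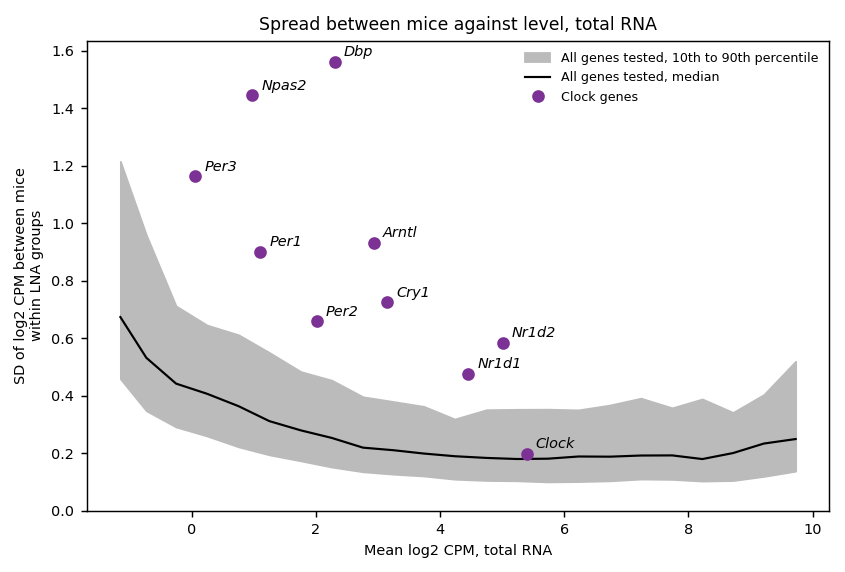
SD of log2 CPM between mice within LNA groups against mean log2 CPM in total RNA, with the median (line) and the 10th to 90th percentile (grey) of all genes tested in bins of level and the 10 clock genes as named points. All clock genes but Clock lie above the grey band, Dbp at 1.56 and Clock at 0.20.

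The extremes of the 10 members fell on few animals. Mouse 9 was the highest or lowest of the 10 mice for 8 of the 10 clock genes in total RNA, beside 25.4% of all genes tested, and for 7 of 10 on polysomes, beside 19.6%. Mouse 1 held 6 and 5, beside 15.0% and 10.2% of all genes. Mouse 10, which had the largest share of extremes over all genes in total RNA, held 1 extreme of the 10 members there, the highest Arntl. On polysomes it held 3 of 10, beside 25.7% of all genes. The wider lists differed from the members. In total RNA mouse 10 was the extreme for 8 of 14 other clock genes and 6 of 12 liver genes known to cycle. Mouse 9 held 6 and 5 of these. Mouse 9 also had the lowest hepatocyte marker sum of the GFP LNA mice in total RNA, 38543 CPM, and the highest sum of each of the other 5 marker lists, 188 CPM for Kupffer cells and 34.7 CPM for cholangiocytes among them. Mouse 10 likewise had the lowest hepatocyte marker sum of the SNORA73 LNA mice in total RNA, 41369 CPM. It had the highest Kupffer cell, cholangiocyte and T cell sums of that group, 209, 54.6 and 2.87 CPM. Its stellate cell sum, 183 CPM, was the lowest, and its endothelial sum, 101 CPM, was neither. The part of these marker sums in the clock gene values was not tested.

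The 2 libraries of a mouse gave nearly the same order of animals. Across the 10 mice, log2 CPM in total RNA and in polysome RNA were related for 8 of the 10 members at an adjusted permutation p under 0.05. For Dbp, Pearson's r was 0.99 and Spearman's rho 0.89 (adjusted permutation p = 0.0001 and 0.0024, n = 10). For Per1 r was 0.97, for Arntl 0.96, for Nr1d1 0.89, for Per3 0.89, for Cry1 0.87, for Npas2 0.85 and for Nr1d2 0.71, with rho from 0.68 to 0.99 for these 7. Clock (r = 0.36, rho = 0.41, adjusted permutation p = 0.304 and 0.247, n = 10) and Per2 (r = 0.55, rho = 0.45, adjusted permutation p = 0.0995 and 0.212, n = 10) did not pass. For Dbp, r was 0.98 without the 2 mice farthest from the median in total RNA, for Arntl 0.89 and for Npas2 0.89. For Per3 and Nr1d2 it fell to 0.66 and 0.65, and the relation no longer passed. Centring on the LNA group means left r at 0.99 for Dbp and 0.98 for Arntl. Total and polysome RNA came from the same lysate of each mouse, so this compares separate libraries and not separate animals.

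Across mice Arntl ran with Npas2 and Cry1 and against Per3, Nr1d2 and Dbp. Of 9 relations in total RNA, 5 passed at an adjusted permutation p under 0.05 for Pearson's r. The coefficient with Npas2 was 0.93 (rho 0.67, adjusted permutation p = 0.00956 and 0.0866, n = 10) and with Cry1 0.85 (rho 0.62, adjusted permutation p = 0.0206 and 0.0925, n = 10). These 2 relations rest on mice 9 and 11, since r was 0.58 and 0.46 without mice 9 and 11, the farthest from the median of Arntl. With Nr1d2 r was -0.83 (rho -0.85, adjusted permutation p = 0.00435 and 0.0250, n = 10), with Per3 -0.86 (rho -0.79, adjusted permutation p = 0.00435 and 0.0411, n = 10) and with Dbp -0.74 (rho -0.72, adjusted permutation p = 0.00435 and 0.0700, n = 10). The last 3 kept their sign and most of their size without mice 9 and 11, at -0.78, -0.66 and -0.75, but 0 of the 9 relations passed the adjusted test over the remaining 8 mice. With Clock r was 0.29, with Per1 -0.39, with Per2 -0.56 and with Nr1d1 -0.42, and none of these passed. Within LNA groups, after centring on group means, r was -0.88 with Dbp, -0.87 with Nr1d2 and -0.93 with Per3. In polysome RNA 5 of 9 relations passed, and r with Dbp was -0.83.

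**Figure D4:**
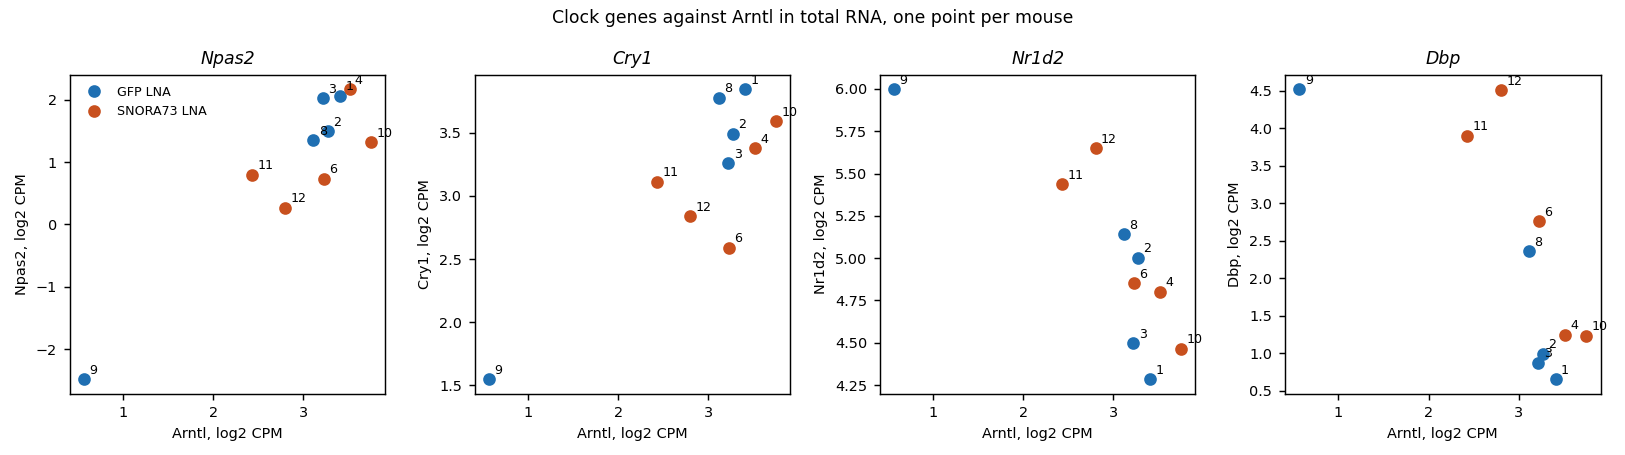
Npas2, Cry1, Nr1d2 and Dbp against Arntl in total RNA, both axes in log2 CPM, 1 numbered point per mouse, blue for the GFP LNA and orange for the SNORA73 LNA. Mouse 9 lies alone at low Arntl, and mice 11 and 12 lie between it and the other mice in the Nr1d2 and Dbp panels, where r was -0.83 and -0.74.

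Of 8276 genes with a mean above 5 CPM in total RNA, the 5 whose log2 CPM over the 10 mice was most like that of Arntl were Iqsec1 (r = 0.97), Helz2 (0.95), Nfil3 (0.92), Mtmr4 (0.91) and Cyp2d40 (0.90). The 5 most opposed were Stard4 (-0.97), Ctns (-0.95), Pxn (-0.95), Fnip2 (-0.94) and Plin3 (-0.93). For Dbp the most like were Acsm3 (0.92), Apool (0.92), Eva1a (0.91), Borcs7 (0.91) and Agmo (0.91), and the most opposed included Cep170b (-0.91), Sike1 (-0.89), Nfil3 (-0.88) and Rfxank (-0.87). These are descriptions over the same 10 mice, the ends of a long ranking, and carry no test. Nfil3 encodes E4BP4, the repressor that competes with DBP at D-boxes, and was the 1 gene on both lists. Its total RNA level was 32.2, 21.7, 20.7, 11.98 and 3.80 CPM in GFP LNA mice and 19.95, 19.9, 25.2, 9.07 and 9.91 CPM in SNORA73 LNA mice, lowest in mouse 9 and next in mice 11 and 12. Tef, a D-box activator of the same family as Dbp and also picked out after its values were seen, was highest in mouse 9 at 47.7 CPM, followed by mice 12 and 11 at 44.8 and 40.7 CPM, while the other 7 mice ranged from 9.15 to 30.3 CPM.

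The wider clock and its liver outputs gave no calls with the SNORA73 LNA either. Of 15 other clock genes 14 were tested in total RNA (Ciart was too low), and 0 were called. Bhlhe41, a repressor at E-boxes, had a log2 fold change of 0.32 (SE 0.26) and Hlf one of 0.25 (SE 0.14). Of 12 liver genes known to cycle 0 were called, with Wee1, a cell cycle kinase driven from E-boxes, at -0.88 (SE 0.45), Usp2, a deubiquitinase, at 0.86 (SE 0.54) and Lpin1, a phosphatidate phosphatase, at -0.35 (SE 0.57). The medians of Wee1 were close, 1.56 CPM in GFP LNA and 1.54 CPM in SNORA73 LNA livers, and its highest GFP LNA value was 6.51 CPM. Its lowest SNORA73 LNA value rests on 15 counts. Usp2 followed Dbp among mice, with 9.37 and 10.4 CPM in mice 11 and 12, 7.95 CPM in mouse 9 and 1.14 to 5.22 CPM in the others. Lpin1 was 313 CPM in mouse 9, where the other mice ranged from 18.1 to 139 CPM. Of 5 glucocorticoid-responsive genes 0 were called, with Tat, tyrosine aminotransferase, at 0.43 (SE 0.24), Tsc22d3 at 0.33 (SE 0.38) and Zbtb16 at 0.14 (SE 0.28). In polysome RNA 0 genes of these 3 lists were called.

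A second question was which clock transcripts were carried on polysomes more or less than their share of total RNA. The test without regard to which libraries came from the same mouse called 2 of 10 members in GFP LNA livers, both lower on polysomes, where 42.8% of 13795 genes were called, 21.0% lower and 21.8% higher. They were Clock, at a log2 ratio of -0.70 (SE 0.16, edgeR adjusted p = 0.00141), and Nr1d2, at -1.28 (SE 0.35, adjusted p = 0.00567). In SNORA73 LNA livers the same 2 genes were called, where 38.0% of genes were, 18.2% lower and 19.7% higher, Clock at -0.48 (adjusted p = 0.0207) and Nr1d2 at -1.10 (adjusted p = 0.0169). These SNORA73 calls depended on single mice: neither gene was called without mouse 11 or without mouse 12, and Clock was not called without mouse 4. Without mouse 9 Cry1 was called too, at -0.63. A share of 2 in 10 is below the share over all genes, and the large differences between mice in clock gene level enter the error of this test.

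With the mouse as a block, which compares the 2 libraries of each liver, 5 of 10 members were called in each group, where 56.1% of all genes were called in GFP LNA livers (27.2% lower, 28.9% higher) and 51.1% in SNORA73 LNA livers (25.1% lower, 26.0% higher). The direction differed among members. Nr1d2 was lower on polysomes in 10 of 10 mice, with log2 ratios from -1.76 to -0.15 and block estimates of -1.26 (SE 0.17, adjusted p = 1.9e-05) in GFP LNA and -1.13 (adjusted p = 7.5e-05) in SNORA73 LNA livers. Clock was lower in 9 of 10 mice, at -0.72 (adjusted p = 0.000219) and -0.49 (adjusted p = 0.00506). Cry1 was lower in 9 of 10 mice, at -0.44 (SE 0.15, adjusted p = 0.0214) and -0.66 (SE 0.16, adjusted p = 0.00258). The exception for both Clock and Cry1 was SNORA73 LNA mouse 6, which also gave the -0.15 of Nr1d2. Over all genes, the 2 libraries of mouse 6 were the least alike of the 10 pairs in deviation from group means (r = 0.11). Dbp went the other way. It was higher on polysomes in 10 of 10 mice, with log2 ratios from 0.14 to 0.90 and block estimates of 0.81 (SE 0.10, adjusted p = 7.35e-06) in GFP LNA and 0.58 (SE 0.10, adjusted p = 0.000135) in SNORA73 LNA livers. Nr1d1 was called higher in GFP LNA livers alone, at 0.32 (adjusted p = 0.0230), and was 0.12 in SNORA73 LNA livers (adjusted p = 0.384). Arntl was called lower in SNORA73 LNA livers alone, at -0.39 (adjusted p = 0.0100), and was -0.07 in GFP LNA livers (adjusted p = 0.63). The REV-ERB paralogs thus parted in every mouse, Nr1d1 exceeding Nr1d2 in log2 polysome over total RNA by 0.59 to 1.91, with a median of 1.48 over 10 of 10 mice, a pattern picked out after its values were seen. The block calls of Dbp, Nr1d2 and Clock held in both groups with library totals in place of TMM and without mice 9 and 10. In GFP LNA livers Cry1 was not called under either change (adjusted p = 0.0569 and 0.0562), and Nr1d1 was not called without mice 9 and 10 (adjusted p = 0.150). Npas2 was called in SNORA73 LNA livers without mice 9 and 10, at -0.77. Polysome RNA went through heparinase treatment and another clean-up than total RNA, so a ratio between the RNAs holds the difference in preparation too.

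**Figure D5:**
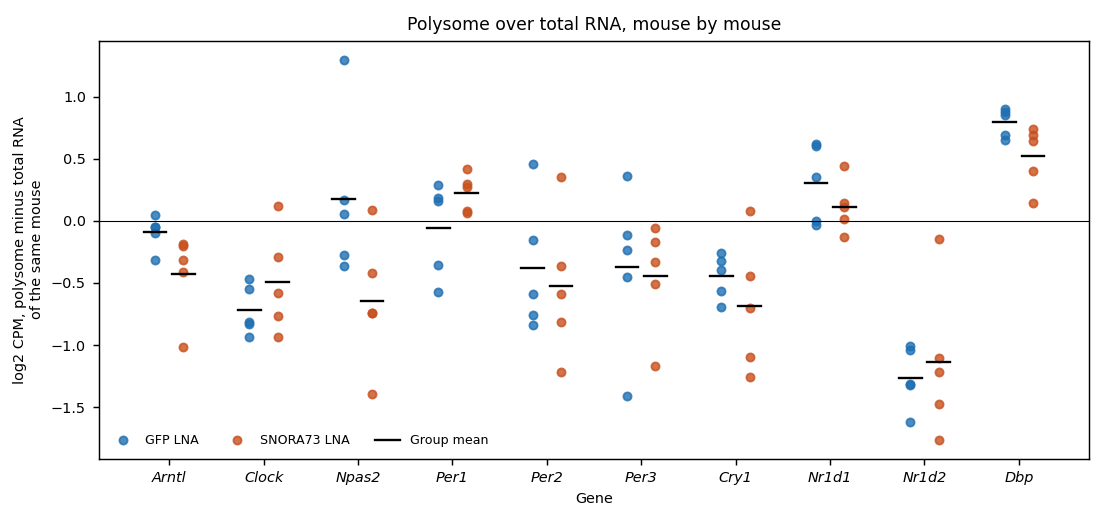
Log2 CPM in polysome RNA minus log2 CPM in total RNA of the same mouse for each clock gene, with blue points for the 5 GFP LNA mice, orange points for the 5 SNORA73 LNA mice and a black line for each group mean. All 10 points of Dbp lie above 0 and all 10 of Nr1d2 below it.

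The polysome share of the clock genes did not change past the test with the SNORA73 LNA. The change in polysome over total RNA was called for 0 of 10 members (edgeR), where 0.00725% of 13795 genes were (1 gene), and 0 members had an unadjusted p under 0.05, where 2.91% of genes did. DESeq2, limma-voom and the mouse block also called 0 members. The estimates ran from -0.32 for Npas2 to 0.23 for Per1. With the mouse block, which gave the smallest errors, the difference was -0.32 (SE 0.16, adjusted p = 0.632) for Arntl and -0.23 (SE 0.14, adjusted p = 0.689) for Dbp. Neither Arntl nor Nr1d1 was called for this difference. The calls of Arntl in 1 group and Nr1d1 in the other were thus not shown to differ between groups.

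Of the other clock genes and liver outputs, a smaller share was called without the block than over all genes in GFP LNA livers. Over all genes it was 42.8% (21.0% lower, 21.8% higher). The differences between mice enter the error of this test, so the smaller share is not shown to be a trait of these genes. Without the block, those lower on polysomes in GFP LNA livers included Hlf at -0.63 (adjusted p = 0.00361) and Rora, the ROR activator of Arntl, at -0.52 (adjusted p = 0.00610). In SNORA73 LNA livers Hlf was lower, at -0.64, and Csnk1e, a kinase of the PER proteins, was higher at 0.61 (adjusted p = 0.00502). Mouse by mouse, Bhlhe40 was lower on polysomes in 10 of 10 mice and Nfil3 was higher in 10 of 10, both picked out after their values were seen. Other genes of these lists also kept 1 direction in 10 of 10 mice, among them Wee1, Nampt and Cyp7a1 (lower) and Usp2 (higher). The share of all genes that did so was not computed. Such constancy is thus not shown to be particular to any of these genes, Dbp and Nr1d2 included. Without the block the share called of the 12 liver genes known to cycle was again below that over all genes. In GFP LNA livers 3 were lower and 1 was higher. They were Wee1 at -1.59, Cyp7a1, the rate-limiting enzyme of bile acid synthesis, at -1.30, Nampt, of NAD salvage, at -0.91 and, higher, Tspan4 at 0.67. Wee1, Cyp7a1 and Nampt were lower in SNORA73 LNA livers too, at -1.58, -1.15 and -0.98. The ratios of Wee1 rest on low polysome counts, down to 4 in GFP LNA and 5 in SNORA73 LNA livers. Of the 5 glucocorticoid-responsive genes, Sgk1 was lower and Zbtb16 higher in both groups, at -1.21 and 0.93 in GFP LNA livers.

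Several members share genomic sequence with a neighbour. The reads were stranded, but the sources used here do not state whether strand was used in counting. Reads of a shared transcribed stretch could therefore be split. The overlaps given here are of whole gene spans, introns included, and the overlap of exons was not computed. In RefSeq (GRCm38.p6) Nr1d1 overlaps Thra by 1075 bases, Dbp overlaps Sphk2 by 741 and Per3 overlaps Uts2 by 4714. Arntl, Clock, Npas2 and Per2 overlap noncoding genes or pseudogenes. The gene lengths behind the counts are not used here, so levels were compared between mice and not between genes.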

How the data were processed

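Livers of 10 mice were sequenced as total and as polysome RNA with 100 bp reads. The authors trimmed reads with fastp (Phred 15 or higher), removed those that aligned to rRNA with Bowtie 2 and quantified the rest with kallisto 0.46.2 against Ensembl release 102 (GRCm38). The deposited table held their estimated counts per gene for 20 libraries, which were rounded to whole numbers here. Depth limits the precision of the low genes (Npas2, Per1, Per3). Genes above 0.5 CPM in 4 or more libraries went into edgeR 4.0.16 (TMM scaling, quasi-likelihood test, Benjamini-Hochberg adjustment over all genes tested, false discovery rate under 0.05). The standard error is the log2 fold change over the root of F. Total and polysome RNA were fitted apart, and ratios between them in a fit of 4 groups.

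Total and polysome libraries with the same number come from the same mouse, and their deviations from group means correlated in all 10 pairs (r from 0.11 to 0.54; in 8 of 10 the own library was the best match, and not for mice 4 and 6), and since they share an animal, the fit with the mouse as a block is given beside the other. Correlations used log2 CPM (prior count 1) with 100000 permutations, two-sided. DESeq2 1.42.0, limma-voom 3.58.1, other scalings, no filter and left-out mice were alternatives. The scripts were tested on simulated data. The members and gene lists were chosen with earlier results of these data known. The genes named from a list are those called and the 3 with the largest log2 fold change in total RNA, and the genes most like Arntl and Dbp are the 5 of highest and lowest r. A gene that this rule names is not reported here. No libraries were identical. Mice are separate animals, but nothing in the labels gives cage, litter or day.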

Additional observations from a re-analysis of the deposited data

Results flagged for a closer look

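In 7 of the 40 sets of 5 mice (10 genes, 2 LNAs, 2 RNAs), the highest or lowest mouse stood further from the nearest other than Dixon's 95% critical value for 5 samples allows (gap over range, in log2 CPM), and chance alone would do this in about 1 set in 20. Of the 7, 6 were GFP LNA mouse 9 at the low end. Arntl there was 1.45 CPM in total RNA (the other 4 mice 8.62 to 10.6) and 1.16 CPM on polysomes (8.56 to 10.4). Cry1 was 2.89 CPM in total RNA (9.54 to 14.4) and 1.95 CPM on polysomes (7.62 to 11.6). Npas2 was 0.145 CPM in total RNA (2.51 to 4.14) and 0.415 CPM on polysomes (2.91 to 3.46). These 6 values come from 1 animal and are not separate events. The seventh was Per1 in polysome RNA of GFP LNA mouse 1, at 0.411 CPM from 12 counts. No SNORA73 LNA mouse stood apart by this measure.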

How the results depend on the processing

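No member was called with the SNORA73 LNA in total RNA, in polysome RNA or in their ratio under any alternative run, but their small log2 fold changes changed sign often. Under limma-voom Per2, Per3 and Nr1d2 became 0.042, 0.44 and 0.062 in total RNA, Arntl and Per3 0.11 and 0.36 in polysome RNA, Npas2 and Per1 0.10 and -0.12 in polysome over total RNA of GFP LNA livers, and Per2 -0.25 in the change of that ratio. Library totals in place of TMM moved the median of all genes by -0.14 (total RNA) and -0.15 (polysome RNA), and gave Clock -0.025 in total RNA, Nr1d1 -0.10 in polysome RNA and Arntl 0.011 in polysome over total RNA of GFP LNA livers. Without mice 9 and 10 Arntl, Per2, Per3 and Nr1d2 became -0.21, 0.034, 1.13 and 0.46 in total RNA, and Per2 and Per3 0.17 and 0.88 in polysome RNA. The cause was not tested.

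With the replicate block by mouse, 5 members were called in polysome over total RNA in each LNA group, Per1 became -0.0079 in GFP LNA livers and Per2 -0.11 in the change of the ratio, and the block changed no other direction. Another pair of settings was added after the data were seen. The replicate block with library totals called 4 members in GFP LNA and 5 in SNORA73 LNA livers, with Npas2 at 0.051 in GFP LNA livers and Per2 at -0.13 in the change of the ratio. The replicate block without mice 9 and 10 called 3 and 6 members.

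Leaving out each mouse in turn called 0 to 3 members in polysome over total RNA of SNORA73 LNA livers, where 4152 to 5343 of all genes were called. It gave a median spread percentile of 94.65 to 98.4 in total RNA. In total RNA it gave log2 fold changes of -0.056 to 0.35 for Arntl, -0.0025 to 0.17 for Clock, -0.46 to 0.012 for Per2, -0.50 to 0.94 for Per3 and -0.18 to 0.33 for Nr1d2. In polysome RNA it gave -0.33 to 0.16 for Arntl, -0.39 to 0.018 for Per2, -0.65 to 0.73 for Per3, -0.14 to 0.23 for Nr1d1, -0.061 to 0.49 for Nr1d2 and -0.21 to 1.81 for Dbp. Per1 ran from -0.057 to 0.14 in polysome over total RNA of GFP LNA livers. In the change of that ratio Per2 ran from -0.20 to 0.20, Per3 from -0.24 to 0.12 and Nr1d2 from -0.12 to 0.40.

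Of the relations with Arntl, 0 passed without the 2 mice farthest from the median and 0 without mice 9 and 10, where fewer mice remain, and Clock with Arntl became -0.52 without mice 9 and 10. Clock in total against polysome RNA became -0.030 without the 2 farthest mice.

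Over all genes, the 4 calls in total RNA became 75 with DESeq2, 2 with library totals, 13 with no filter, 97 without mice 9 and 10 and 1 to 59 with 1 mouse left out (59 without mouse 9). The 2 calls in polysome RNA became 281 with DESeq2, 0 with library totals, 72 with no filter, 31 without mice 9 and 10, 317 in 1 fit of all 20 libraries and 0 to 17 with 1 mouse left out. The 1 call in the change of the ratio became 7 with DESeq2, 0 with limma-voom and 0 without mice 9 and 10. The low counts of Npas2, Per1 and Per3 limit what could be seen for them.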
